A study of Mus musculus with 4 samples.

Results

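The interferon response and MHC class I genes considered here were 33 genes, chosen by their roles as interferon receptors, interferon signalling factors, antiviral sensors and effectors, the Isg15 conjugation system, and the processing, loading and display of peptides on class I molecules. Their transcripts were followed in muscle satellite cells, the stem cells of skeletal muscle, sorted straight from mouse muscle without culture. Of the 33 genes, 31 had at least 1 probe set annotated with that symbol alone, among 18193 genes so named on the array, and they were read by 55 probe sets. The only probe set of Isg15 also carries another gene's symbol, so it was not used, and Ifi44 was not analysed here. The Calcr-cKO group (n = 2) came from mice with Pax7-CreERT2, a floxed Calcr gene on both chromosomes and Rosa-YFP, and the control group (n = 2) from mice with Pax7-CreERT2, intact Calcr and Rosa-YFP. All mice were 10 weeks old and all received tamoxifen, 2 weeks before YFP-positive cells were sorted. Calcr encodes the calcitonin receptor, and because Cre was driven from Pax7, both the deletion and the YFP label mark cells that expressed Pax7 at the time of treatment. The titles call the samples biological replicates 1 and 2 of each group, but they do not say how many mice were pooled.

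Interferons are secreted proteins that bind paired receptors on the cell surface, Ifnar1 with Ifnar2 for type I interferon and Ifngr1 with Ifngr2 for interferon gamma. Type I signals pass through a complex that holds Stat2 and Irf9 to a DNA element called the interferon-stimulated response element (ISRE), and interferon gamma induces the transcription factor Irf1. Most cells show peptides on class I molecules built from a heavy chain and B2m, after cutting by the proteasome and transport by Tap1 and Tap2, and interferon gamma replaces proteasome subunits by Psmb8, Psmb9 and Psmb10.

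Promoter sequences from RefSeq (GRCm38.p6) were set beside the array values to show the response elements that the genes of this response carry. Of the 33 genes, 29 had an entry. The core of the ISRE, searched as GAAA, then any 2 bases, then GAAA, was looked for on both strands in the 250 bases before each start site. It occurred in 10 of these 29 genes and in 3.46% of all 27025 genes in the table. The patterns GAANNGAAA and TTCNNNGAA, where N is any base, were searched in the same way. GAANNGAAA occurred in 5 of the 29 genes (7.3% of all genes) and TTCNNNGAA in 7 (8.13% of all genes). The 5 promoters first printed are those of members that hold the core and whose signal followed the replicate number of the array, as described below. Psmb9 also followed the number and has an entry, but it holds no core and is not among the 5. In these 5 promoters, capitals mark the core on either strand (TTTC, any 2 bases and TTTC is the same core read on the other strand). Each runs from 180 bases before the start site to the base before it, 5′ to 3′ along the gene: Ifit1 at chr19:34640709-34640888 on the plus strand, Ifit3 at chr19:34583349-34583528 on the plus strand, Rsad2 at chr12:26456453-26456632 on the minus strand, Bst2 at chr8:71537473-71537652 on the minus strand and Gbp3 at chr3:142559864-142560043 on the plus strand.
Ifit1: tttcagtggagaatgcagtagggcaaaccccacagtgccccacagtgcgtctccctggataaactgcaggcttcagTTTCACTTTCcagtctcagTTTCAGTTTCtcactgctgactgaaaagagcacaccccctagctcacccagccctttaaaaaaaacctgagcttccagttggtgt
Ifit3: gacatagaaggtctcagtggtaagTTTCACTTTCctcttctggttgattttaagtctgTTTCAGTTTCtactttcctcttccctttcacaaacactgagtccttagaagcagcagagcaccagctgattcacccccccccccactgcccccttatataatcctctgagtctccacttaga
Rsad2: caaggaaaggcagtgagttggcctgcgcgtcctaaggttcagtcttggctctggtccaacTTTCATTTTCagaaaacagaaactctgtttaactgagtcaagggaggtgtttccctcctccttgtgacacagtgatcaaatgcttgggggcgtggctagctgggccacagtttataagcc
Bst2: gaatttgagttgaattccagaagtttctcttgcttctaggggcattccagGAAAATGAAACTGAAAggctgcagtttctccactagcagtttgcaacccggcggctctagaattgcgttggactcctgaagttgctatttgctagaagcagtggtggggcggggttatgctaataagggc
Gbp3: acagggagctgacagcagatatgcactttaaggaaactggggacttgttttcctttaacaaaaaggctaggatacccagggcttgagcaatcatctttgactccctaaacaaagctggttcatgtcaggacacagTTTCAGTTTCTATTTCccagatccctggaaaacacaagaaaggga

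The ISRE core was present 2 times in the stretches of Ifit1, Ifit3, Bst2 and Gbp3, where the 2 copies of Bst2 and of Gbp3 overlap, and 1 time in that of Rsad2. A match is a description of these letters and was not tested as a binding site.

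A further sequence shows how close together antigen processing genes lie. Tap1 and Psmb9 are transcribed away from each other from start sites 225 bases apart. The whole stretch between them (chr17:34187331-34187555, plus strand) is read in the direction of Tap1. It holds no match to the ISRE core, GAANNGAAA or TTCNNNGAA, so it has no capitals. In the RefSeq table the protein-coding genes Psmb9, Tap1, Psmb8 and Tap2 follow each other on chromosome 17 with no other between them.
Tap1 and Psmb9: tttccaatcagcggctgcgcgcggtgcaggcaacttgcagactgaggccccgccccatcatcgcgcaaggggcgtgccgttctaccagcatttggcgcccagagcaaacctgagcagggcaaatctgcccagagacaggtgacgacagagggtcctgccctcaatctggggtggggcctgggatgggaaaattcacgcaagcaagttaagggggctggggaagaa

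The last pair shows how alike the class I heavy chain genes are. The 200 bases before the start sites of H2-K1 (chr17:34000348-34000547, minus strand) and H2-D1 (chr17:35262894-35263093, plus strand) matched at 128 of 140 aligned bases (91.4%), with the remainder unaligned because the annotated start sites differ. Both carry GAANNGAAA, a core bound by interferon regulatory factors that 7.3% of all genes in the table hold, and capitals mark it as read on the other strand.
H2-K1: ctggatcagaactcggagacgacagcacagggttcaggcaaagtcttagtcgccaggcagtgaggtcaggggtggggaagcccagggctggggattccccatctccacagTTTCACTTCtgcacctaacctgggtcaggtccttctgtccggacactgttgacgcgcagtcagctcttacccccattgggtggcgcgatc
H2-D1: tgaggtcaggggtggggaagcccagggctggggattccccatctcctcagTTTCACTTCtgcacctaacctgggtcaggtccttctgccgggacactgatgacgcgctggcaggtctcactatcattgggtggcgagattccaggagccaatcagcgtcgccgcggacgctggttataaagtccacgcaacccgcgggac

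The values are MAS5 signals, linear intensities that summarise the probes of a probe set on 1 array. Median signals over all probe sets ran from 57.9 to 70.4, and the 3′ to 5′ signal ratio of the Gapdh control ran from 1.54 to 1.71, highest on Calcr-cKO replicate 2. Calcr, the targeted gene, had signals of 568 and 684 in Calcr-cKO cells against 1268 and 1424 in control cells, and the sources used here do not state whether its probe set lies in the deleted part. Differences are given as log2(signal + 1) in Calcr-cKO minus control. The median gene had a difference of -0.07, made up of 0.07 between the arrays numbered 1 and -0.22 between those numbered 2. With arrays centred on their median it was 0.03, a shift of all genes that bears on every small difference below.

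Marker lists show which other cell types the sorted cells may have held. Pax7, which defines satellite cells and was named after its values were seen, read 2170 and 2434 in Calcr-cKO cells and 2319 and 3647 in control cells. The 10 satellite cell markers summed to 24869 and 26288 in Calcr-cKO cells and to 24246 and 31671 in control cells. The arrays numbered 1 stood apart from those numbered 2 in both genotypes. The 15 measured endothelial markers summed to 10443 on Calcr-cKO replicate 1 and 2631 on Calcr-cKO replicate 2, against 11669 on control replicate 1 and 2441 on control replicate 2. For 13 of the 15, replicate 1 exceeded replicate 2 by 2-fold or more in Calcr-cKO and in control cells (4.51% of all genes). The endothelial cadherin gene Cdh5 had 1060 and 110 in Calcr-cKO cells against 1044 and 79.7 in control cells. Cd34, which satellite cells also express, had 1043 and 1147 in Calcr-cKO cells against 1510 and 1156 in control cells. Pericyte and smooth muscle markers (12 measured) summed to 20932 and 10237 in Calcr-cKO cells against 18220 and 12904 in control cells, and 8 of 12 followed the number by 2-fold or more. The 9 measured fibro-adipogenic markers summed to 23638 and 26264 in Calcr-cKO cells and 22253 and 28255 in control cells, and 0 of 9 did so. Leukocyte markers (17 measured) summed to 1790 and 702 in Calcr-cKO cells and to 1682 and 3010 in control cells, so that control replicate 2 was high and Calcr-cKO replicate 2 low. In bulk samples such as these, fewer cells of a type and less RNA per cell cannot be told apart.

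Between genotypes, no probe set of a member was called after adjustment for the number of probe sets tested. Of 22519 probe sets past a filter on dim signals (a mean log2 signal at or above the median of all probe sets), 0 had an adjusted p under 0.05 in the moderated test of limma, with Benjamini-Hochberg adjustment, and the smallest adjusted limma p was 0.99999. At an unadjusted limma p under 0.05 there were 163 probe sets (0.724%), and 1 of the 41 member probe sets past the filter was among them, a probe set of H2-D1 that was lower in Calcr-cKO cells (0.506% of all). Every one of the 41 had an adjusted limma p of 0.99999, which is not repeated at each gene. The filter was passed by 26 of the 31 measured genes. Oas1a, Mx1, Mx2, Usp18 and Tap2 were dimmer and are given as values without a test. With 2 samples a group, the smallest p that a 2-sided exact permutation test can give is 0.333. Calcr itself, at -1.11 (SE 0.25, unadjusted limma p 0.0029), was not called either. A lack of calls therefore does not show that the members were unchanged.

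Each gene taken by its brightest probe set, 10 of the 31 genes were higher and 21 lower in Calcr-cKO cells, where 41.9% and 58.1% of all 18193 genes were. With arrays centred on their median, 13 members were higher and 18 lower (53.2% and 46.8% of all genes), and after quantile normalization 12 were higher and 19 lower (51.3% and 48.7% of all genes). The median difference of the members was -0.19, against -0.07 over all genes. It was -0.12 between the arrays numbered 1 and -0.29 between those numbered 2. That median moved with every array: it was 0.22 without Calcr-cKO replicate 2, 0.01 without control replicate 1, -0.44 without control replicate 2 and -0.46 without Calcr-cKO replicate 1. Both Calcr-cKO arrays lay above both control arrays for 2 members, Ifit2 and Mx1 (9.44% of all genes), and below both for 2 members, Isg20 and H2-K1 (15.8% of all genes). Within both replicate numbers, 12 members were lower in Calcr-cKO cells (26.7% of all genes) and 6 were higher (17.5% of all genes).

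**Figure D1:**
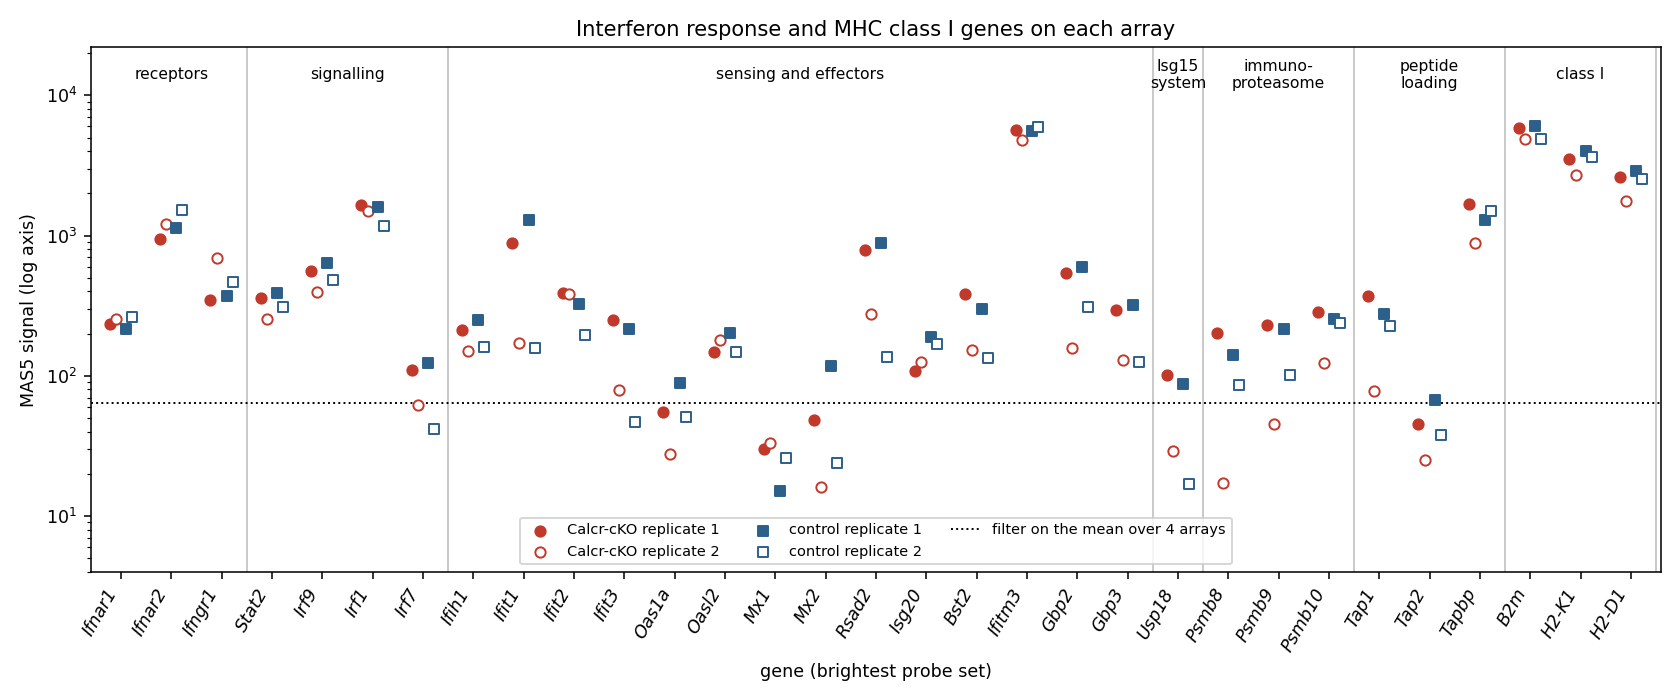
MAS5 signal (log axis) of the brightest probe set of each of the 31 measured genes on each array, grouped by role. Red circles are Calcr-cKO and blue squares control, filled for replicate 1 and open for replicate 2, and the dotted line is the filter applied to the mean over the 4 arrays (a signal of 63.9). Ifit1, Ifit3, Rsad2, Mx2, Bst2, Gbp3, Usp18 and Psmb9 have both filled symbols at least 2-fold above the open symbol of the same genotype.

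The receptors were read on all arrays. Ifnar2, the high-affinity chain of the type I interferon receptor, had 945 and 1217 in Calcr-cKO cells against 1128 and 1525 in control cells, a log2 difference of -0.29. The groups overlapped on this probe set, though Calcr-cKO was the lower array within each number (-0.26 and -0.33). Its other 2 probe sets read 435 and 490 in Calcr-cKO cells against 509 and 702 in control cells, and 222 and 172 in Calcr-cKO cells against 256 and 306 in control cells, with no overlap on either. The 3 differences were -0.29, -0.37 and -0.51 (SE 0.26, 0.31 and 0.34), and since all 3 read 1 gene they are not independent. Ifnar1, its partner chain, had 234 and 253 in Calcr-cKO cells and 215 and 264 in control cells, a difference of 0.03 (SE 0.33). That value was -0.21 when both of its probe sets were averaged, because the dim one read 32.7 and 58.0 in Calcr-cKO cells against 51.7 and 68.3 in control cells. Ifngr1, the ligand-binding chain for interferon gamma, had 346 and 694 in Calcr-cKO cells against 370.5 and 463 in control cells. Calcr-cKO replicate 2 was the highest array for Ifngr1, and the difference was -0.10 within number 1 and 0.58 within number 2.

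The signalling factors had differences between -0.24 and 0.20. Stat2, a part of the type I response complex, had 357.5 and 252 in Calcr-cKO cells against 390.2 and 308 in control cells on its brightest probe set (-0.21, SE 0.34), and its other probe set had the opposite sign (0.15). Irf9, the DNA-binding part of that complex, had 557 and 396 in Calcr-cKO cells against 632 and 484 in control cells (-0.24, SE 0.33). For both genes replicate 1 was the higher array of each genotype. Irf1, a transcription factor induced by interferon gamma, read 1655 and 1495 in Calcr-cKO cells and 1599 and 1176 in control cells (0.20, SE 0.24), with overlapping groups. Irf7, which amplifies the type I response, read 111 and 61.4 in Calcr-cKO cells against 122 and 41.9 in control cells, and followed the replicate number by 1.79-fold and 2.88-fold.

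Among the antiviral sensors and effectors, 14 of 15 listed genes were measured, 5 with a higher and 9 with a lower mean log2 signal in Calcr-cKO cells. Ifit2, of the IFIT family that binds foreign RNA, had 391 and 384 in Calcr-cKO cells against 325.5 and 197 in control cells. Both Calcr-cKO arrays were above both control arrays, by 0.61 on the log2 scale (SE 0.36). Isg20, an exonuclease gene, had 108 and 126 in Calcr-cKO cells against 190.2 and 168 in control cells, the groups again apart, by -0.61 (SE 0.35). Neither passed the test. The sign of each held in the alternatives that kept all arrays. With 1 array left out it could not turn, because the groups did not overlap. The differences then ran from 0.25 to 0.97 for Ifit2 and from -0.73 to -0.50 for Isg20. Mx1, a GTPase gene whose product blocks influenza virus and which is disrupted in many laboratory strains, was dim on all arrays, at 30.3 and 33.4 in Calcr-cKO cells against 15.1 and 26.1 in control cells.

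Several genes of this role followed the replicate number of the array in both genotypes. Ifit1 had 879.5 and 170.2 in Calcr-cKO cells against 1291 and 158 in control cells, which is 5.14-fold and 8.12-fold higher on replicate 1. Its genotype difference was -0.22 with an SE of 1.04. Rsad2, which encodes viperin, an enzyme that makes a chain-terminating nucleotide, had 784 and 278 in Calcr-cKO cells against 879 and 135 in control cells. All 3 of its probe sets were higher on replicate 1, between 2.82-fold and 3.97-fold in Calcr-cKO cells and between 2.30-fold and 6.46-fold in control cells, while their genotype differences were 0.43, -0.47 and 0.03. Ifit3, an IFIT gene with a near-identical copy, so that its signal may be shared, had 252 and 79.1 in Calcr-cKO cells against 216 and 46.5 in control cells. Both genotypes were thus high on the arrays numbered 1 for each of these genes, and the groups overlapped.

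Bst2, Gbp3 and Mx2 showed the same split, and Gbp2 came near it. Bst2 (tetherin), which holds budding virus at the cell surface, had 386 and 152 in Calcr-cKO cells against 301 and 133 in control cells. Gbp3, an interferon-induced GTPase gene, had 292 and 130.1 in Calcr-cKO cells against 317.5 and 125 in control cells, and its genotype difference of -0.03 turned to 0.06 with arrays centred on their median. Mx2, a dim relative of Mx1, had 48.7 and 16.1 in Calcr-cKO cells against 118 and 24.04 in control cells. Replicate 1 exceeded replicate 2 in each genotype for all 3. Gbp2, another GTPase gene of this family, had 539.6 and 157 in Calcr-cKO cells against 592 and 307 in control cells on its brightest probe set, and 451 and 168 in Calcr-cKO cells against 752.5 and 262 in control cells on the other. On these probe sets replicate 1 exceeded replicate 2 by 3.42-fold and 2.67-fold in Calcr-cKO cells and by 1.93-fold and 2.86-fold in control cells. Calcr-cKO was lower within each number on both probe sets of Gbp2 (-0.13 and -0.96, and -0.74 and -0.64), for pooled differences of -0.55 (SE 0.61) and -0.69. Usp18, of the Isg15 system, encodes the protease that removes Isg15 and also restrains the type I receptor, and it read 101 and 29.0 in Calcr-cKO cells against 86.7 and 17.03 in control cells.

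The remaining members of this role differed by less than 2-fold between replicates of a genotype. Ifitm3, a membrane protein gene that blocks virus entry, had 5647 and 4820 in Calcr-cKO cells against 5587 and 5943 in control cells (-0.14, SE 0.13). Ifih1, which encodes the RNA sensor Mda5, had 214 and 150.3 in Calcr-cKO cells against 249.9 and 160 in control cells, a difference of -0.16 (SE 0.39). Oasl2, of the oligoadenylate synthetase-like family, read 147 and 181 in Calcr-cKO cells and 201 and 147 in control cells, and its relative Oas1a was dim at 55.3 and 27.8 in Calcr-cKO cells against 88.9 and 50.5 in control cells. Replicate 1 was the higher array of both genotypes for Ifih1 (1.42-fold in Calcr-cKO cells and 1.56-fold in control cells) and Oas1a (1.96-fold and 1.75-fold in the same order), and not for Ifitm3 or Oasl2. The difference of Oasl2 (-0.07) turned to 0.02 with arrays centred on their median.

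Counted over all measured members, 8 of 31 had 2-fold or more signal on replicate 1 in both genotypes (4.51% of all genes): Ifit1, Ifit3, Rsad2, Mx2, Bst2, Gbp3, Usp18 and Psmb9. Among genes past the filter these were 6 of 26 members (3.08% of all genes past it), without Mx2 and Usp18. In the opposite direction there were 0 of 31 (1.08% of all genes). Promoters were in the table for 6 of these 8 genes, and 5 of the 6 hold the ISRE core within 250 bases, against 4 of the 21 other measured members with an entry. This count was made after the values were seen and is a description. The endothelial markers, with 13 of 15 split in this way, and the pericyte markers, with 8 of 12, were high on the same arrays, and their part in the members' split was not tested.

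**Figure D2:**
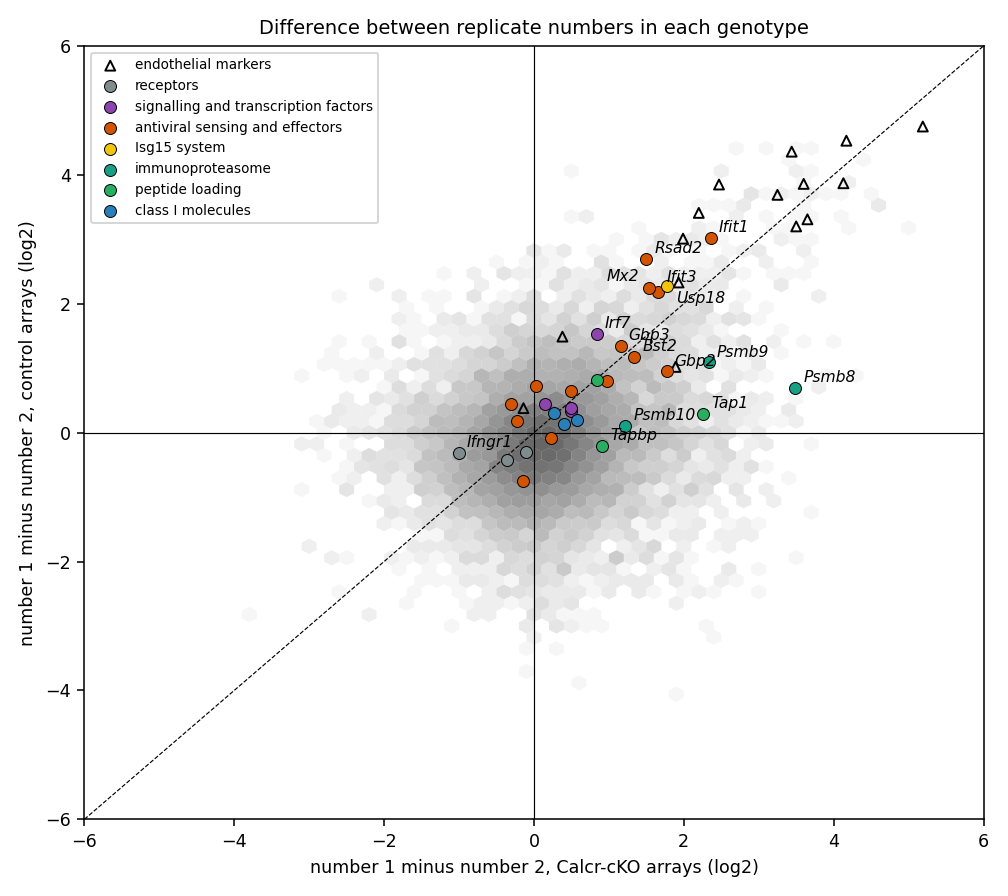
Log2 signal on replicate 1 minus replicate 2, in Calcr-cKO cells (horizontal) and in control cells (vertical), for the 31 measured genes coloured by role and for the endothelial markers (triangles), over all named genes (grey shading, darker with more genes, and genes beyond the axes not shown). Points near the dashed line differ by number alike in both genotypes, as Ifit1, Ifit3, Usp18 and Bst2 do, whereas Psmb8 (3.49 and 0.70) and Tap1 (2.26 and 0.29) differ mainly in Calcr-cKO cells.

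Antigen processing genes had another pattern, in which Calcr-cKO replicate 2 was the lowest array. Psmb8, an immunoproteasome subunit gene, had 203 and 17.1 in Calcr-cKO cells against 140 and 85.8 in control cells. Psmb9, a further subunit, had 232 and 44.9 in Calcr-cKO cells against 217 and 102 in control cells, and Psmb10, the remaining one, had 287 and 123 in Calcr-cKO cells against 255 and 237 in control cells. On the brightest probe sets, Calcr-cKO replicate 2 was the lowest array for all 3, and Calcr-cKO replicate 1 the highest, so the groups overlapped. Within number 1 the differences were 0.53, 0.09 and 0.17, and within number 2 they were -2.26, -1.16 and -0.94. The pooled differences were -0.86 (SE 1.01), -0.53 (SE 0.76) and -0.38 (SE 0.45), each smaller than its standard error. The signal of 17.1 for Psmb8 lies below the filter signal of 63.9, and with a pseudocount of 32 the pooled difference of Psmb8 was -0.41.

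The peptide loading genes shared it in part. Tap1, a subunit of the peptide transporter, had 373 and 77.4 in Calcr-cKO cells against 276 and 225.5 in control cells on its only probe set past the filter, a difference of 0.43 within number 1 and -1.53 within number 2. Its 3 other probe sets were dim and disagreed in sign. Tapbp (tapasin), which bridges the transporter and the class I molecule, had 1672 and 888 in Calcr-cKO cells against 1293 and 1498 in control cells, and its other probe set had 151 and 69.0 in Calcr-cKO cells against 122 and 201.5 in control cells. Calcr-cKO replicate 2 was again the lowest array on both probe sets of Tapbp, while Calcr-cKO replicate 1 was the highest on the brighter one. Tap2, the other transporter subunit, was dim throughout, with 45.4 and 24.9 in Calcr-cKO cells against 66.8 and 37.6 in control cells.

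Over all measured members, 3 were at least 2-fold lower on Calcr-cKO replicate 2 than on control replicate 2 (12.7% of all genes), and they were Psmb8, Psmb9 and Tap1. In the opposite direction on those arrays, 1 member was 2-fold or more higher, Rsad2 (5.18% of all genes), and between the arrays numbered 1 there was 1 member 2-fold or more lower, Mx2 (5.94% of all genes). These shares of the 31 were below those of all genes, which include the dim ones. Among the 10140 genes past the filter, 515 were 2-fold or more lower on Calcr-cKO replicate 2 than on control replicate 2, and 148 were higher. Psmb8, Psmb9, Tap1 and Rsad2 are among the 26 members past the filter, and there the members' shares were above those of all genes. Psmb8, Psmb9 and Tap1 lie side by side on chromosome 17. Their neighbour Tap2 was instead lower within both numbers (-0.55 and -0.58). Psmb10, on chromosome 8, had differences of 0.17 and -0.94, a split like theirs. Of the 7 measured members on chromosome 17 (Psmb8, Psmb9, Tap1, Tap2, Tapbp, H2-K1 and H2-D1), 7 were lower on Calcr-cKO replicate 2 than on control replicate 2 (65.8% of all genes) and 4 were higher on Calcr-cKO replicate 1 than on control replicate 1 (56.7% of all genes). This grouping by chromosome was made after the values were seen. Leukocyte markers were low on the same array: 13 of 17 were at least 2-fold lower on Calcr-cKO replicate 2 than on control replicate 2, and 12 of 17 were higher on Calcr-cKO replicate 1 than on control replicate 1. Lyz2, the lysozyme of myeloid cells, read 531.5 and 50.7 in Calcr-cKO cells against 432 and 462.5 in control cells, Cd74, the class II invariant chain, read 111 and 49.5 in Calcr-cKO cells against 89.7 and 451 in control cells, and the T cell marker Cd3e, named after its values were seen, was at or below 0.94 on every array. Laptm5, a lysosomal membrane protein gene of blood cells, had 86.6 and 23.7 in Calcr-cKO cells against 313 and 328 in control cells, lower within both numbers (-1.84 and -3.74). It was 1 of 5 leukocyte markers of 17 with both Calcr-cKO arrays below both control arrays (15.8% of all genes). Of these 5, Adgre1, Itgam and Cd79a were too dim to pass the filter. Cd68, a macrophage marker, went the other way, with 402 and 282 in Calcr-cKO cells against 334 and 195 in control cells. Calcr-cKO replicate 2 also had the lowest median signal (57.9) and the highest Gapdh 3′ to 5′ ratio (1.71) of the 4 arrays, and 10 of 10 satellite cell markers were lower on it than on control replicate 2. The part of leukocytes, RNA quality or array signal in the low values of the antigen processing genes was not tested.

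**Figure D3:**
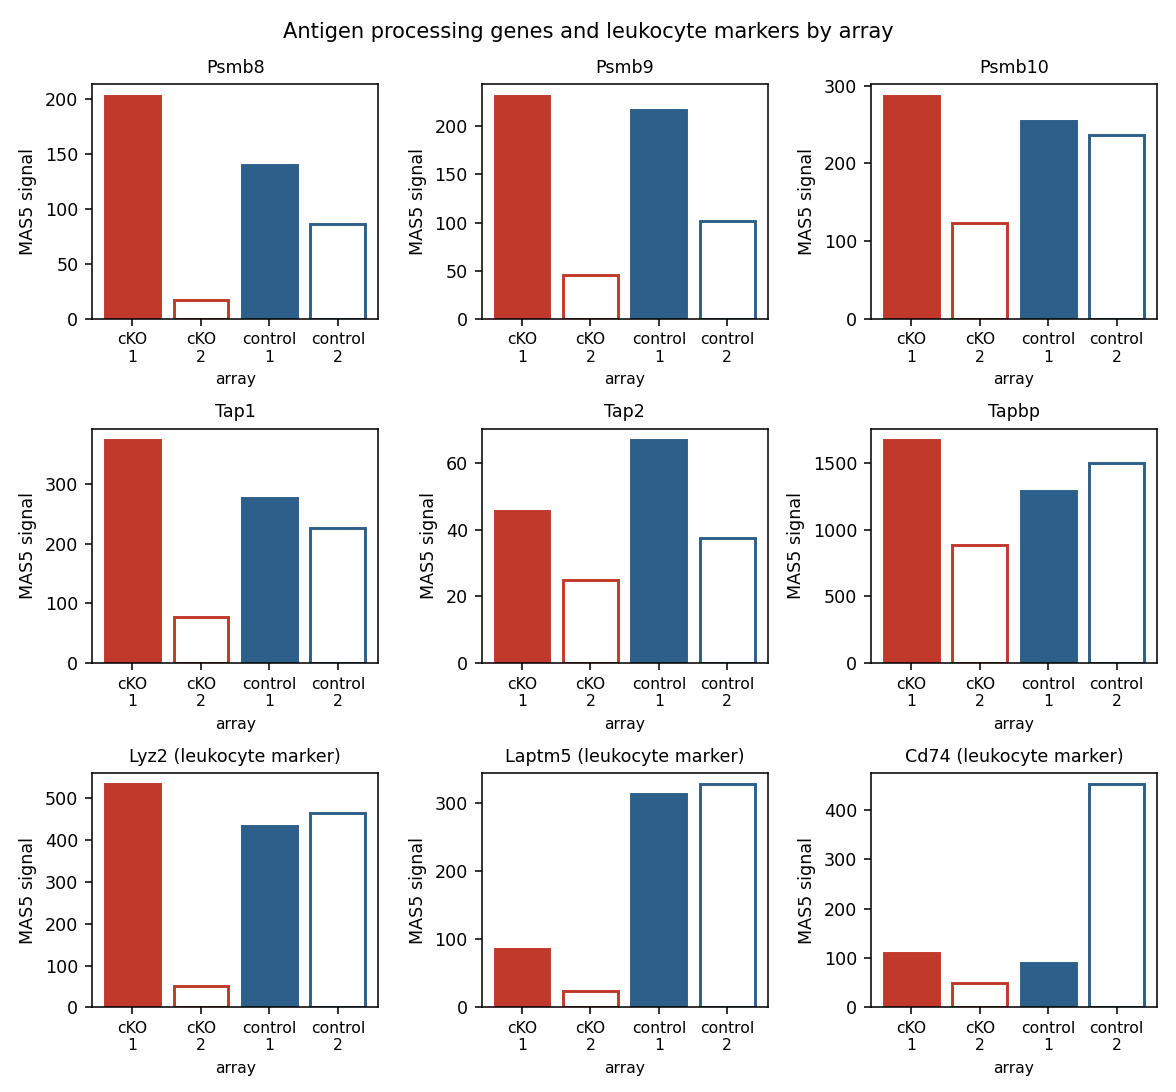
MAS5 signals (linear axes from 0, 1 bar per array) of 6 antigen processing genes and, in the bottom row, 3 leukocyte markers, with Calcr-cKO in red and control in blue, filled for replicate 1 and open for replicate 2. The bar of Calcr-cKO replicate 2 is the lowest in all 9 panels, at 17.1 for Psmb8 and 77.4 for Tap1, whereas control replicate 2 is the highest for Laptm5 and Cd74 and not for the antigen processing genes.

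The class I molecules themselves were bright on every array. B2m, the light chain, had 5836 and 4851 in Calcr-cKO cells against 6088 and 4904 in control cells, and its second probe set had 4804 and 3612 in Calcr-cKO cells against 4591 and 3781 in control cells. The differences were -0.04 (SE 0.16) and 0.00 to 2 decimals (SE 0.18), and the first turned to 0.05 with arrays centred on their median. H2-K1, a heavy chain gene, had 3541 and 2688 in Calcr-cKO cells against 3994 and 3619 in control cells, with both Calcr-cKO arrays below both control arrays (-0.30, SE 0.18). Its 2 further probe sets past the filter had the same sign (-0.27 and -0.32) with overlapping groups.

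H2-D1, the other classical heavy chain gene measured, had 9 probe sets, of which 6 passed the filter and 6 of those 6 were lower in Calcr-cKO cells, by -0.84 to -0.24. On the brightest it had 2612 and 1764 in Calcr-cKO cells against 2906 and 2538 in control cells (-0.34, SE 0.23). On the dimmer probe set counted above it had 520.2 and 481 in Calcr-cKO cells against 961 and 695 in control cells, with no overlap (-0.71, SE 0.29). Its unadjusted limma p was above 0.05 after quantile normalization, with arrays centred on their median and without an intensity trend. Most heavy chain probe sets carry the suffix that the maker gives to probes shared with other sequences. A further probe set is annotated to both genes. Signals of H2-K1, H2-D1 and related genes cannot be told apart on such probe sets. The H2-D1 probe set past the filter that lacks this suffix had 2567 and 1897 in Calcr-cKO cells against 2805 and 2416 in control cells. Its groups overlapped (-0.24, SE 0.21).

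**Figure D4:**
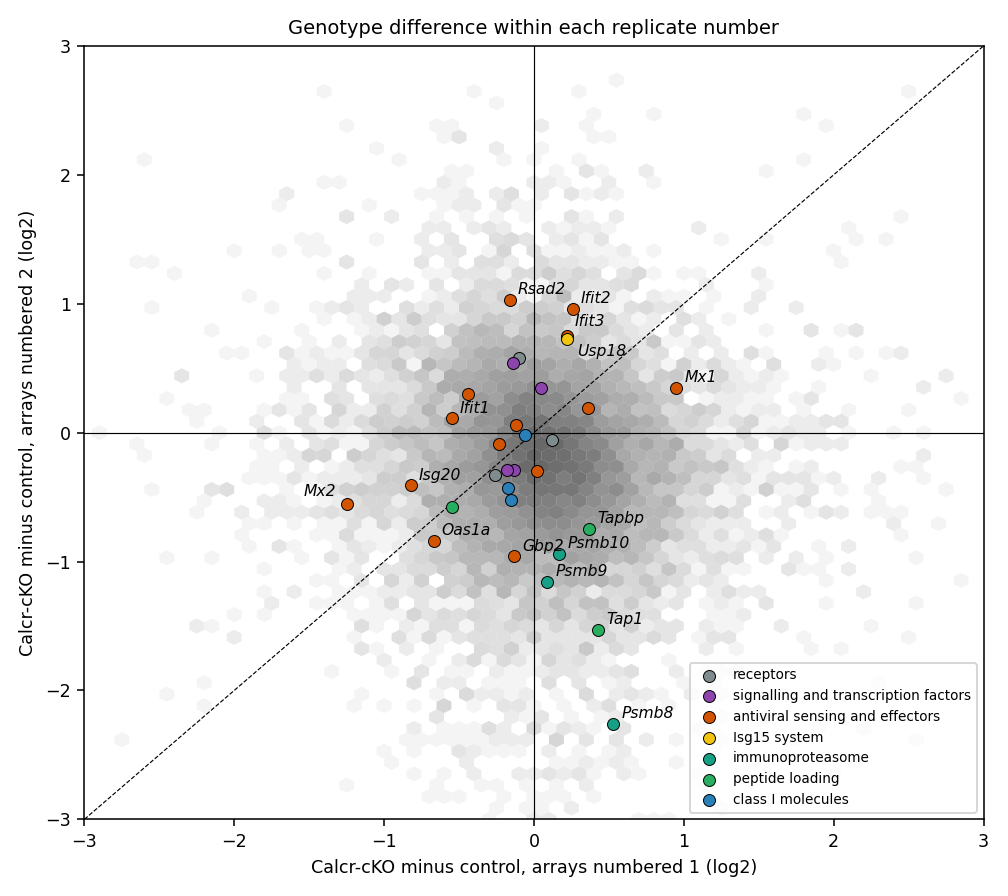
Log2 difference between Calcr-cKO and control within the arrays numbered 1 (horizontal) and within those numbered 2 (vertical) for the 31 measured genes, coloured by role, over all named genes (grey shading, darker with more genes, and genes beyond the axes not shown). Ifit2 (0.26 and 0.96) and Isg20 (-0.82 and -0.41) keep their sign in both comparisons, while Psmb8, Psmb9, Psmb10, Tap1 and Tapbp lie above 0 for number 1 and at -0.75 or below for number 2.

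Further genes of the pathway were listed beside the members. Of 76 measured genes in 4 lists, 34 were higher and 42 lower in Calcr-cKO cells, with a median difference of -0.06 against -0.07 over all genes, and 0 reached an unadjusted limma p under 0.05. Both Calcr-cKO arrays lay above both control arrays for 6 of the 76 (9.44% of all genes) and below for 7 (15.8% of all genes), shares below those of all genes. Of 14 further ligand, receptor and JAK-STAT genes, 10 were lower and 4 higher, among them the kinase genes Tyk2 (-0.32), Jak1 (-0.21) and Jak2 (-0.22) and the transcription factor gene Irf3 (-0.24). The interferon genes Ifnb1 and Ifng, named after their values were seen, were listed at signals of at most 7.09 and 2.53, far below the filter. Of 10 nucleic acid sensing genes, 8 were higher and 2 lower (41.9% and 58.1% of all genes), with a median difference of 0.10. For 4 of the 10, both Calcr-cKO arrays lay above both control arrays (9.44% of all genes). Of these, only Tlr3 passed the filter. The adaptor genes Ticam1 (-0.34) and Mavs (0.21), the receptor gene Tlr3 (0.13) and the kinase gene Tbk1 (0.07) had the smallest p in that list.

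The 40 further interferon-induced effectors divided by genotype into 18 higher and 22 lower, and 13 of the 40 followed the replicate number by 2-fold or more in Calcr-cKO and in control cells (4.51% of all genes). By genotype the smallest p belonged to the ubiquitin ligase gene Trim21, which had 143 and 84.3 in Calcr-cKO cells against 206 and 144 in control cells (-0.64, SE 0.42), and to the GTPase gene Irgm2 (-0.61), Ifi27l2a (0.71) and Cd274, which encodes PD-L1 (-1.14). By number, Cd274 had 180.4 and 24.1 in Calcr-cKO cells against 300.3 and 72.5 in control cells, 7.21-fold and 4.10-fold higher on replicate 1. Trim30a, named after its values were seen, had 229 and 17.2 in Calcr-cKO cells against 217 and 22.9 in control cells. Replicate 1 was thus the high array of each genotype for both, as for Ifit1 and Rsad2.

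Of 12 further antigen presentation genes, 4 were higher and 8 lower, with a median difference of -0.11. The chaperone genes Calr (-0.16) and Canx (-0.20), the constitutive proteasome subunit gene Psmb5 (-0.31) and the tapasin relative Tapbpl (-0.31) had the smallest p. Psmb5, whose place Psmb8 takes in the immunoproteasome, had 334 and 217 in Calcr-cKO cells against 262 and 423 in control cells, so it too was lowest on Calcr-cKO replicate 2, and was highest on control replicate 2. Nlrc5, the transactivator of class I genes and named after its values were seen, had 166 and 54.7 in Calcr-cKO cells against 228.5 and 45.9 in control cells, and so followed the replicate number instead.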

How the data were processed

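Total RNA of sorted YFP-positive satellite cells was labelled with biotin and hybridised to 1 array per sample, per the labels' protocols. The authors deposited MAS5 signals, intensities on a linear scale, as named in the submitters' processing notes, which as used here give no scaling target. The array holds 45101 probe sets. Controls (64, AFFX) were removed, and by the platform annotation 34945 of the others had 1 gene symbol, 932 several and 9160 none. Genes were named from probe sets with 1 symbol.

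Signals were analysed as log2(signal + 1) without further normalization. Probe sets were tested where their mean log2 signal reached the median of all (a signal of 63.9), with limma 3.58.1 in R 4.3.3 (lmFit, eBayes with an intensity trend, no block), 2-sided, adjusted over 22519 probe sets by Benjamini-Hochberg. Residual degrees of freedom were 2 and prior ones 5.32. The steps were also run on simulated data with independent noise on each array. Those data lack the shared deviation of same-numbered arrays seen here. P-values set a difference against the spread between these samples, moderated by that of other probe sets. Without a block, this spread includes the difference between replicate numbers. A gene stands by its brightest probe set, whether or not that passed the filter. All members are named; of each further list, up to 4 genes with the smallest limma p and, of marker lists, up to 4 with the highest signal; others (Pax7, Cd3e, Ifnb1, Ifng, Trim30a and Nlrc5) were chosen after their values were seen. The members and lists were chosen with earlier results of these data known. Alternatives were quantile normalization, centring, a pseudocount of 32, other filters, no trend, a replicate block, other probe set rules and leaving out each array. The number of arrays limits the precision.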

Additional observations from a re-analysis of the deposited data

How the results depend on the processing

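No probe set was called in the test as reported, after quantile normalization, with centred arrays, with a pseudocount of 32, with no filter or a stricter one, or without a trend. With a replicate block 5 probe sets were called, 0 of them of a member, and 473 had an unadjusted limma p under 0.05 against 163 without the block. That count was 878 with no filter, 88 with the stricter one and 132 to 720 without 1 array, where the lone sample of a group is assumed to vary like the other group. Same-numbered arrays deviated together (Pearson correlation 0.43 over the kept probe sets), but with 2 pairs they share only a number. Leaving out 1 array gave 0 to 5 called probe sets, the 5 without Calcr-cKO replicate 1 and 1 without control replicate 1. Of member probe sets, 1 had an unadjusted p under 0.05; the count was 0 after quantile normalization, with centred arrays and without a trend, 2 with the replicate block, and 0 to 7 when 1 array was left out (7 without Calcr-cKO replicate 1, 0 without Calcr-cKO replicate 2, 2 without control replicate 1). The members' median difference stayed between -0.19 and -0.10 under the alternatives that kept all arrays, and ran from -0.46 to 0.22 without 1 array. Members higher without overlap numbered 2 to 3, and members lower without overlap 1 after quantile normalization and 2 to 3 otherwise; with 3 arrays, which overlap less by construction, these counts ran from 3 to 11 and from 4 to 17. With all arrays kept, 26 of 31 members had 1 sign throughout. Gbp3 turned to 0.0146 after quantile normalization and 0.0633 with centred arrays, B2m to 0.0174 and 0.0539, and Oasl2 to 0.0218 with centred arrays; Ifnar1 turned to -0.21 and Rsad2 to -0.0019 with the mean over probe sets. The cause was not tested. Without 1 array, 22 members changed sign, in ranges of Ifnar1 from -0.12 to 0.18, Ifngr1 from -0.26 to 0.74, Stat2 from -0.46 to 0.0432, Irf9 from -0.48 to 0.01, Irf1 from -0.0235 to 0.42, Irf7 from -0.56 to 0.96, Ifih1 from -0.48 to 0.16, Ifit1 from -1.73 to 1.29, Ifit3 from -0.61 to 1.58, Oasl2 from -0.30 to 0.15, Mx2 from -2.02 to 0.22, Rsad2 from -0.91 to 1.78, Bst2 from -0.39 to 0.95, Gbp2 from -1.44 to 0.34, Gbp3 from -0.70 to 0.64, Usp18 from -0.67 to 1.62, Psmb8 from -2.61 to 0.88, Psmb9 from -1.70 to 0.64, Psmb10 from -0.99 to 0.22, Tap1 from -1.68 to 0.58, Tapbp from -0.65 to 0.26 and B2m from -0.19 to 0.12. Without a detection call, what lies below background is unknown, and dim members such as Mx1 and Tap2 are the least certain.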
